A study of Mus musculus with 8 samples.

Results

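The report covers 7 genes that encode transcription factors of the T helper lineages, Tbx21, Gata3, Bcl6, Rora, Ahr, Maf and Eomes. A probe set was taken for a member when its only Entrez identifier was that of the gene. This gave 21 of the 45037 non-control probe sets on the array, and 7 of the 20665 genes with at least 1 such probe set. The arrays were Affymetrix Mouse430_2 arrays hybridized with biotin-labelled RNA of mouse regulatory T cells, the CD4+ T cells that restrain immune responses under the transcription factor Foxp3. Cells were sorted as CD4+CD25+ from lymph nodes and from spleens that were each pooled from 20 untreated mice aged 14 to 17 weeks. The labels call the GFP-RFP+ cells peripherally induced and the GFP+RFP+ cells thymically induced, and neither the strain nor the reporter alleles behind GFP and RFP are given in the sources used here. The 4 groups were GFP-RFP+ lymph node, GFP+RFP+ lymph node, GFP-RFP+ spleen and GFP+RFP+ spleen, each with 2 arrays that the labels call technical replicates. There were therefore 4 pooled RNAs, and the spread between mice or sorts was not measured.

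The factors are best known from conventional CD4+ T cells, where each is tied to a mode of help. T-bet, the product of Tbx21, drives the Th1 lineage, GATA3 the Th2 lineage and BCL6 the follicular helper lineage, while RORα takes part in the Th17 lineage. The aryl hydrocarbon receptor AHR is a ligand-activated factor that favours IL-22 and IL-10 production, c-Maf is a transactivator of the genes for IL-4, IL-10 and IL-21, and Eomesodermin is the T-box relative of T-bet known from cytotoxic T cells and NK cells. Regulatory T cells can express these factors as well, and subsets marked by T-bet, GATA3, BCL6 or c-Maf have been described.

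RefSeq promoter windows of GRCm38.p6, running from 250 bases before to 50 bases after a start site, were matched by Entrez identifier for 5 of the 7 genes. Windows are shown for the T-box pair, because Tbx21 and Eomes differed between the populations in opposite directions, and for both start sites of Bcl6, because its windows held the densest matches to a searched motif. Capitals mark matches to any of 7 searched motifs, each searched on both strands. These were the T-box motif GGTGTGA, the GATA motif AGATAA, the ROR motif AGGTCA, the AHR core GCGTG, the MAF motif TGCTGA, the AP-1 motif TGANTCA and the palindrome TTCNNNGAA, a form bound by STAT proteins and related to the BCL6 motif. The sequences run 5′ to 3′ on the minus strand of chr11:97115282-97115581 for Tbx21, on the plus strand of chr9:118477939-118478238 for Eomes, and on the minus strand of chr16:23988803-23989102 and chr16:23981234-23981533 for Bcl6.
Tbx21: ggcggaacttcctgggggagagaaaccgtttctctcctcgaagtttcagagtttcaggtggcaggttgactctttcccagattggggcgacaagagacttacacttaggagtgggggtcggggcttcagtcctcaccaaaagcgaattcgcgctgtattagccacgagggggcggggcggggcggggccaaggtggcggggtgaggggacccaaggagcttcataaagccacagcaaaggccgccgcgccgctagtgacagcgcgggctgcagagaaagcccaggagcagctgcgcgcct
Eomes: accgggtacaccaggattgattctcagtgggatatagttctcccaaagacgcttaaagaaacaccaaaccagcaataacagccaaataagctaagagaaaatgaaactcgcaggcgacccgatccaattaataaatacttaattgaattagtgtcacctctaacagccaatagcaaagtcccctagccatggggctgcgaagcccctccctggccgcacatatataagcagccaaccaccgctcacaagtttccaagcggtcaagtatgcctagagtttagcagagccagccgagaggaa
Bcl6, first window: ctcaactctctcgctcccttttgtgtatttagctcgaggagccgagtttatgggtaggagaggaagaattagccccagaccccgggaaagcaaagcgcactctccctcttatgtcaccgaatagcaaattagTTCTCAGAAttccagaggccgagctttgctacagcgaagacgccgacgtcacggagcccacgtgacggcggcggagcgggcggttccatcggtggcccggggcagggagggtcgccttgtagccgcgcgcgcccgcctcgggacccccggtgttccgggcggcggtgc
Bcl6, second window: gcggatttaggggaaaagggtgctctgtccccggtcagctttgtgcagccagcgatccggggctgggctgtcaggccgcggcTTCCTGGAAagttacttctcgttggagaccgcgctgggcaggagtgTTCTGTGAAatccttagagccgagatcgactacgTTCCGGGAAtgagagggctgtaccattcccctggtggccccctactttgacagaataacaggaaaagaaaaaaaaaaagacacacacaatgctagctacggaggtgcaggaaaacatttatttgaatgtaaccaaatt
The TTCNNNGAA palindrome occurred at position -118 of the first Bcl6 window and at -168, -122 and -88 of the second, counted from the start site. Of 32851 promoter windows of the same length, 8.30% held this palindrome. The Tbx21 and Eomes windows held none of the searched letters. The Gata3 window held 1 MAF motif at -90, a motif found in 19.5% of the windows, and the Rora window held 1 AHR core at -167, found in 32.4%. No motif match overlapped another in these windows.

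The values analysed were dChip model-based signals on a linear scale, taken to log2. Across arrays the median of all probe sets lay between 4.64 and 4.75 on the log2 scale, and 53.3% to 56.2% of probe sets carried the detection call P (present). The calls sit in array columns that no label ties to a sample, so they are given only as a number of the 8 arrays. All 12 marker genes of regulatory and CD4 T cells were called P on at least 4 arrays, Foxp3 on all 8. The Foxp3 signal ran from 905.1 to 1084 in the GFP-RFP+ arrays and from 1386 to 1580 in the GFP+RFP+ arrays. Signal of myeloid and erythroid marker genes was higher in the spleen arrays, with values given beside the organ comparison.

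All 7 factors were detected by their lead probe set, the brightest of each gene, when detection was taken as a P call on at least 4 arrays. For 6 of them the lead probe set was called P on all 8 arrays, and for Eomes on 7. Of the 21 probe sets, 18 were called P on at least 4 arrays and 13 on all 8. Over all probe sets on the array, 54.9% reached 4 arrays and 38.8% reached all 8. By mean log2 signal of the lead probe set, the order was Maf at 11.02, Gata3 at 10.43, Rora at 9.40, Ahr at 8.65, Bcl6 at 8.57, Tbx21 at 6.78 and Eomes at 5.62. This is an order of signals, not of transcript abundance, because probe sets of different genes respond differently to the same amount of RNA. Over the 8 arrays the range of each gene overlapped that of its neighbour in this order, except for Bcl6 and Tbx21. Read within each single array, however, the order held, except that Bcl6 was above Ahr in every spleen array. The order depended on the probe set chosen to stand for a gene. By the mean over all probe sets of each gene, the order was Gata3, Maf, Tbx21, Bcl6, Rora, Ahr and Eomes, so only Eomes kept its place.

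The comparison of the populations asks how cells labelled as peripherally and thymically induced differ. Tbx21, Gata3, Bcl6, Rora, Ahr and Maf all had higher signals in GFP-RFP+ cells, and Eomes had the lower signal there, in lymph node and in spleen alike. By the lead probe sets, the GFP-RFP+ level was between 1.66 times the GFP+RFP+ level for Gata3 and 3.07 times for Rora, and for Eomes the GFP+RFP+ level was 1.69 times the other. Of the 21 probe sets, 14 had all 4 GFP-RFP+ arrays above all 4 GFP+RFP+ arrays, against 12.0% of all probe sets on the array. A further 2, both of Eomes, had all GFP-RFP+ arrays below, against 7.42% of all probe sets. Among probe sets called P on at least 4 arrays these background shares were 19.9% and 11.4%. Probe sets of the same gene are not independent, here or in the counts below, and 5 of the 14 were of Rora and 5 of Maf. By lead probe set, 6 of the 7 genes had all GFP-RFP+ arrays above and 1 below, against 11.7% and 8.82% of all genes. The median difference over the 7 lead probe sets was 0.92 on the log2 scale, against 0.01 over all probe sets tested.

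In the limma fit on the 4 RNAs, with organ as a term, no probe set on the array passed an adjusted p of 0.05 (0.0% called), and the lowest adjusted p was 0.282. At an unadjusted p under 0.05 the fit had 16.2% of all probe sets and 16 of the 21 member probe sets. When only the brighter probe sets entered the fit, those with a mean log2 signal above the median of all, 14 of the 17 member probe sets tested were called higher in GFP-RFP+ cells and 2 lower, against 13.7% and 6.21% of the probe sets tested. All 7 lead probe sets were among these calls. The factors are therefore described by their values, with both adjusted p-values given for each. Each standard error (SE) is the moderated one of limma, which draws on the spread over all probe sets as well as that of the probe set itself.

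**Figure D1:**
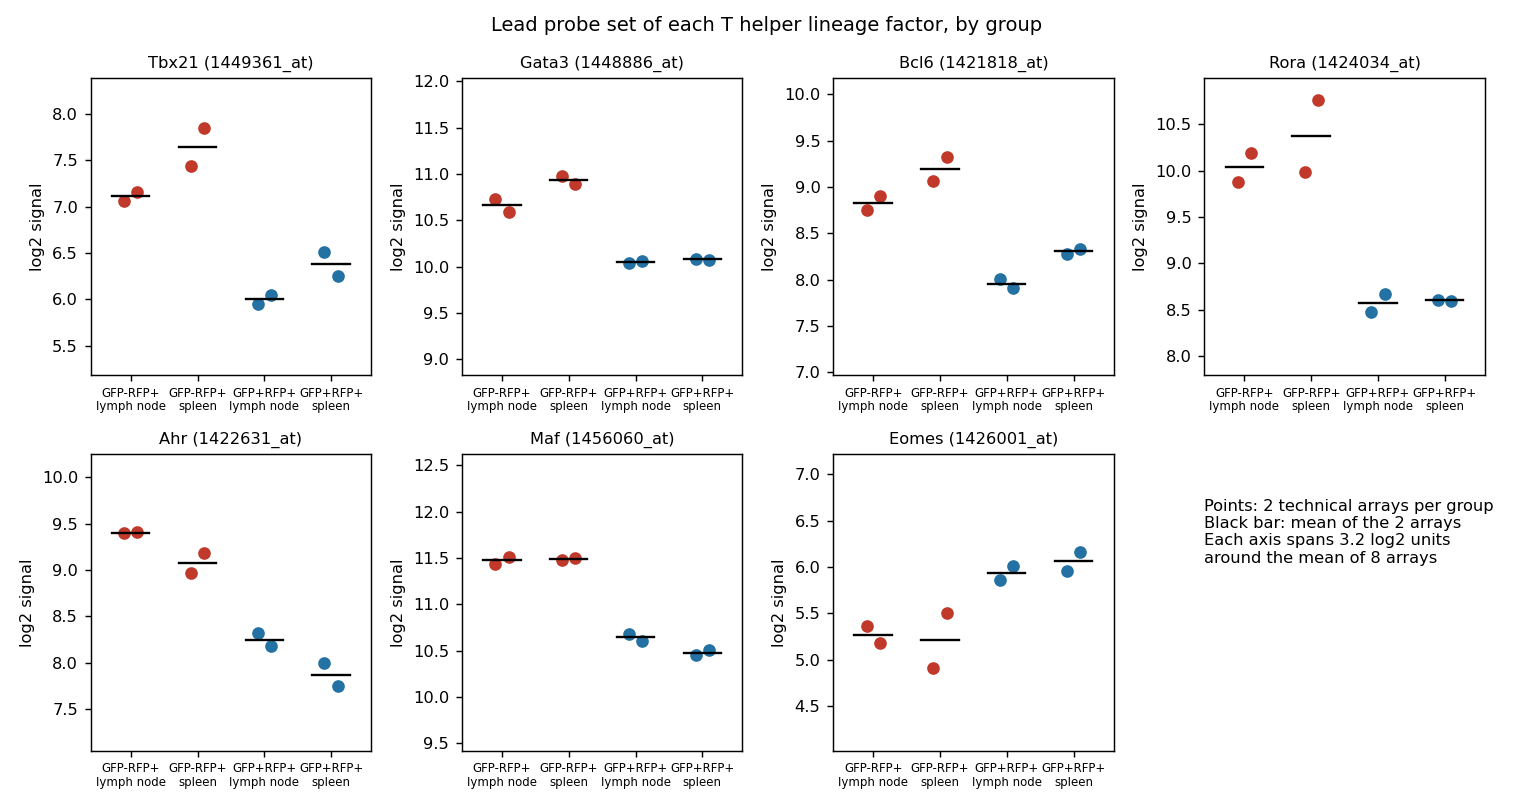
Log2 signal of the lead probe set of each factor (vertical axis, 3.2 log2 units in every panel) in the 4 groups (horizontal axis). Points are the 2 technical arrays of a group and bars their mean. In 6 panels all GFP-RFP+ arrays (red) lie above all GFP+RFP+ arrays (blue), and in the Eomes panel all lie below.

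Tbx21, the gene of the Th1 factor T-bet, has 1 probe set (1449361_at). Its signals were 133.7 and 143.0 in GFP-RFP+ lymph node cells, 62.0 and 66.1 in GFP+RFP+ lymph node cells, 173.3 and 230.9 in GFP-RFP+ spleen cells, and 91.5 and 76.0 in GFP+RFP+ spleen cells. The GFP-RFP+ arrays were higher in each organ without overlap, and the spleen RNA gave the higher signal within each population. The log2 difference between the populations was 1.11 in lymph node and 1.26 in spleen, and 1.19 ± 0.12 (SE) in the fit. The adjusted p in limma was 0.282 over all probe sets and 0.00499 over the brighter probe sets. The technical arrays of a group lay at most 0.41 log2 units apart.

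Eomes, the T-box relative of Tbx21, ran the other way. The lead probe set 1426001_at gave 41.0 and 36.2 in GFP-RFP+ lymph node cells, 58.0 and 64.4 in GFP+RFP+ lymph node cells, 30.2 and 45.4 in GFP-RFP+ spleen cells, and 62.2 and 71.6 in GFP+RFP+ spleen cells. Every GFP+RFP+ array was above every GFP-RFP+ array, at low signals throughout. The log2 difference, GFP-RFP+ minus GFP+RFP+, was -0.67 in lymph node and -0.85 in spleen, with -0.76 ± 0.12 (SE) in the fit and limma adjusted p-values of 0.282 and 0.0122 over all and over the brighter probe sets. The other Eomes probe set, 1435172_at, was called P on 5 arrays and differed more, by -1.27 ± 0.18 (SE). Its signals were 18.1 and 26.8 against 46.9 and 43.7 in lymph node, and 28.7 and 27.0 against 74.3 and 83.9 in spleen. Of the 6 marker genes of NK and innate lymphoid cells, which can carry Eomes, 2 were called P on at least 4 arrays, and Klrb1c and Klre1 were called P on none. These markers did not move together. Gzma, called P on 4 arrays, gave 20.7 to 40.2 in GFP-RFP+ and 9.07 to 19.2 in GFP+RFP+ arrays. All the others had a lower mean log2 signal in GFP-RFP+ cells, with the populations overlapping. The summed signal of these 6 markers ran from 86.1 to 112.4 in the GFP-RFP+ arrays and from 88.7 to 113.1 in the GFP+RFP+ arrays. The summed signal of Cd8a and Cd8b1, markers of CD8 T cells, ran from 135.0 to 169.7 and from 139.7 to 191.3. In pooled RNA, fewer cells that carry a transcript and less of it in each cell cannot be told apart.

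Gata3, which encodes the Th2 factor GATA3, has 1 probe set (1448886_at), and its signal was among the highest of the factors. It gave 1702 and 1546 in GFP-RFP+ lymph node cells, 1050 and 1069 in GFP+RFP+ lymph node cells, 2009 and 1897 in GFP-RFP+ spleen cells, and 1086 and 1076 in GFP+RFP+ spleen cells. The GFP+RFP+ arrays of both organs lay close together, and all GFP-RFP+ arrays were above them. The log2 difference was 0.61 in lymph node and 0.85 in spleen, the smallest among the 6 factors with the higher signal in GFP-RFP+ cells in the joint fit, where it was 0.73 ± 0.13 (SE). The limma adjusted p was 0.282 over all probe sets and 0.0151 over the brighter probe sets.

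Bcl6, which encodes the repressor that defines follicular helper T cells and whose windows are shown above, has 2 probe sets. The lead probe set 1421818_at gave 432.3 and 478.6 in GFP-RFP+ lymph node cells, 257.4 and 240.4 in GFP+RFP+ lymph node cells, 537.7 and 641.6 in GFP-RFP+ spleen cells, and 309.6 and 323.0 in GFP+RFP+ spleen cells. The populations did not overlap, and within each population both spleen arrays were above both lymph node arrays. The log2 difference between the populations was 0.87 in lymph node and 0.89 in spleen, with 0.88 ± 0.11 (SE) in the fit and limma adjusted p-values of 0.282 and 0.0071. The dim probe set 1450381_a_at, with signals from 20.5 to 37.7, differed by 0.38 ± 0.13 (SE) and its populations overlapped. Its limma adjusted p was 0.338 over all probe sets and 0.0556 over the brighter probe sets.

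Rora, which encodes the orphan nuclear receptor RORα, has 7 probe sets and differed most among the lead probe sets. The lead probe set 1424034_at gave 944.3 and 1167 in GFP-RFP+ lymph node cells, 356.7 and 405.5 in GFP+RFP+ lymph node cells, 1014 and 1741 in GFP-RFP+ spleen cells, and 389.3 and 386.6 in GFP+RFP+ spleen cells. All GFP+RFP+ arrays sat in a narrow band, whereas the GFP-RFP+ spleen arrays differed from each other by 0.78 log2 units. The log2 difference between the populations was 1.46 in lymph node and 1.78 in spleen, and 1.62 ± 0.15 (SE) in the fit, with limma adjusted p-values of 0.282 and 0.00424. The 5 Rora probe sets called P on at least 4 arrays differed by 1.13 to 1.87, and in each of them the populations did not overlap. Among them, 1458129_at, called P on 7 arrays, had GFP+RFP+ signals of 16.6 to 24.7, below the median of every array. The same GFP-RFP+ spleen array, replicate 2, was the highest of the 8 in all 5. The other 2 Rora probe sets, 1424035_at and 1441085_at, were called P on 3 arrays and on none. They differed by 0.46 ± 0.15 (SE) and -0.21 ± 0.48 (SE), with the populations overlapping.

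Ahr, which encodes the aryl hydrocarbon receptor, has 2 probe sets. The lead probe set 1422631_at gave 673.9 and 680.6 in GFP-RFP+ lymph node cells, 319.2 and 290.1 in GFP+RFP+ lymph node cells, 502.2 and 581.7 in GFP-RFP+ spleen cells, and 254.9 and 215.0 in GFP+RFP+ spleen cells. The populations did not overlap, and in each population the lymph node arrays were above the spleen arrays. The log2 difference between the populations was 1.15 in lymph node and 1.21 in spleen, with 1.18 ± 0.11 (SE) in the fit and limma adjusted p-values of 0.282 and 0.00445. The other probe set, 1450695_at, was called P on 7 arrays at signals of only 6.35 to 18.7 and differed by 0.57 ± 0.21 (SE), with overlap.

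Maf, which encodes c-Maf, has 6 probe sets, of which 5 were called P on all 8 arrays. The lead probe set 1456060_at gave 2780 and 2929 in GFP-RFP+ lymph node cells, 1643 and 1563 in GFP+RFP+ lymph node cells, 2845 and 2900 in GFP-RFP+ spleen cells, and 1398 and 1452 in GFP+RFP+ spleen cells. The technical arrays of a group lay within 0.08 log2 units, and the populations did not overlap. The log2 difference was 0.83 in lymph node and 1.01 in spleen, with 0.92 ± 0.12 (SE) in the fit and limma adjusted p-values of 0.282 and 0.00807. The other 4 probe sets called P on all arrays differed more, between 1.43 and 1.71, so the size of the Maf difference depended on the probe set. The probe set 1447945_at, called P on 2 arrays, differed by 0.17 ± 0.32 (SE).

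**Figure D2:**
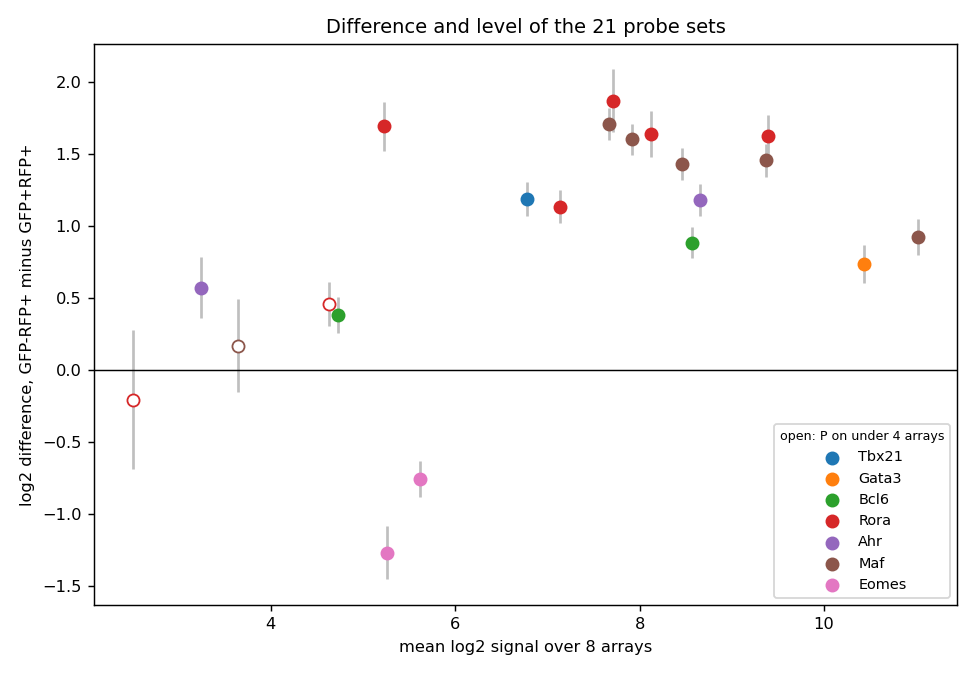
Log2 difference between the populations with its standard error (vertical axis) against the mean log2 signal over 8 arrays (horizontal axis) for the 21 probe sets. The 18 filled points were called P on at least 4 arrays and run from -1.27 for Eomes to 1.87 for Rora. The 3 open points, dim probe sets of Rora and Maf, lie between -0.21 and 0.46.

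The probe sets of a gene thus gave the same direction wherever they were called P on at least 4 arrays. A probe set can pass that filter through the 4 arrays of 1 population alone, and the calls were not assigned to groups. The agreement is therefore a description, not a check on the direction. All 13 probe sets called P on all 8 arrays, none of them of Eomes, were higher in GFP-RFP+ cells. In all 18 probe sets called P on at least 4 arrays, the sign of the population difference was the same in lymph node and in spleen. The sign differed between the organs in 2 probe sets, Rora 1441085_at and Maf 1447945_at, which were called P on none and on 2 arrays. The difference between the organs in the population effect was tested over the 8 arrays with an interaction term, which measures it against array error only. No member probe set passed, with a lowest limma adjusted p of 0.952, against 0.00222% of all probe sets called.

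**Figure D3:**
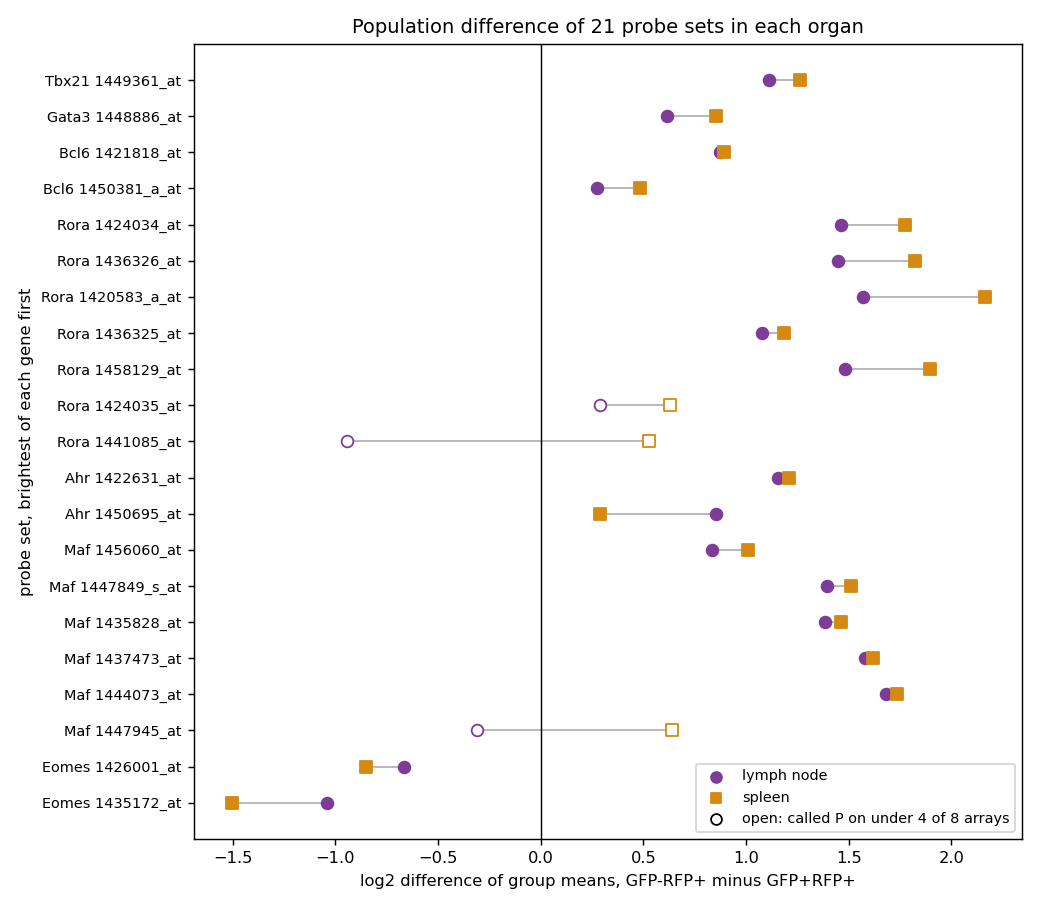
Difference of group means, GFP-RFP+ minus GFP+RFP+, on the log2 scale (horizontal axis) for each of the 21 probe sets (vertical axis), in lymph node (circles) and spleen (squares). Filled symbols were called P on at least 4 arrays and lie on one side of 0 for each gene, to the left only for Eomes.

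For each of the 7 lead probe sets the organ difference was smaller in size than the population difference. It was the larger difference in 3 other probe sets, Bcl6 1450381_a_at (0.46 ± 0.13, SE, limma adjusted p = 0.622), Rora 1441085_at (1.25 ± 0.48, SE, called P on no array) and Maf 1447945_at (-0.27 ± 0.32, SE, called P on 2 arrays). No member probe set had all 4 spleen arrays on one side of all 4 lymph node arrays, against 2.84% of all probe sets with all spleen arrays above and 1.88% with all below, 4.72% together. In the limma fit none passed an adjusted p of 0.05, as none did on the whole array (0.0% called, lowest adjusted p 0.475), while 1 of the 21 and 8.04% of all probe sets had an unadjusted p under 0.05. Over the brighter probe sets none of the factors passed either, against 0.617% of those tested called higher in spleen and 0.0533% lower. The 1 probe set with a low unadjusted p was Tbx21, higher in spleen by 0.46 ± 0.12 (SE, limma adjusted p = 0.62). The lead probe set of Bcl6 was higher in spleen by 0.36 ± 0.11 (SE, limma adjusted p = 0.633), and that of Ahr lower by the log2 difference -0.35 ± 0.11 (SE, limma adjusted p = 0.635). These 3 kept their sign in both populations, with Tbx21 at 0.53 in GFP-RFP+ and 0.38 in GFP+RFP+ cells, Bcl6 at 0.37 and 0.35, and Ahr at -0.33 and -0.38. The lead probe sets of Gata3, Rora, Maf and Eomes differed by 0.15 ± 0.13, 0.18 ± 0.15, -0.08 ± 0.12 and 0.03 ± 0.12 (log2 difference, SE). The other Eomes probe set, 1435172_at, was higher in spleen by 0.57 ± 0.18 (SE, limma adjusted p = 0.644), with 0.34 in GFP-RFP+ and 0.80 in GFP+RFP+ cells. The median over the 7 lead probe sets was 0.15, against 0.01 over all probe sets. Marker genes of other cells differed by organ in the same arrays. The summed signal of the 8 represented myeloid and dendritic markers, 4 of them called P on at least 4 arrays, was 196.1 to 223.8 in the lymph node arrays and 939.7 to 1693 in the spleen arrays. That of 4 erythroid markers was 87.3 to 107.3 and 251.9 to 556.7, and that of 7 B cell markers, of which Pax5 was called P on no array, was 281.2 to 323.0 and 528.5 to 909.2. Their part in the organ differences of the factors was not tested. Within the spleen, the myeloid sum was 1259 to 1693 in GFP-RFP+ and 939.7 to 1264 in GFP+RFP+ arrays, and within the lymph node it was 196.1 to 209.3 and 223.3 to 223.8. Its part in the population differences of the factors was not tested.

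Other genes of the lineage programmes were read by the lead probe set of each gene, in 6 lists. As for the factors, no gene passed the limma fit over all probe sets. The count of genes whose arrays do not overlap between the populations is therefore given, against 11.7% of all genes with all GFP-RFP+ arrays above and 8.82% with all below. The median log2 difference over all genes was -0.01.

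Of the 12 Th1 genes, 7 had all GFP-RFP+ arrays above and 2 below, with a median log2 difference of 0.56. Ifng, which encodes interferon gamma, gave 867.4 to 1219 in GFP-RFP+ arrays and 89.7 to 103.5 in GFP+RFP+ arrays, a log2 difference of 3.38 ± 0.11 (SE). Among the genes below was the receptor gene Il12rb2, called P on no array and named after its value was seen.

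Of the 11 represented Th2 genes, 3 had all GFP-RFP+ arrays above and none below, with a median difference of 0.78. Ccr8, a chemokine receptor of Th2 cells and of regulatory T cells in tissue, was called P on 6 arrays, gave 53.0 to 73.9 against 11.9 to 27.5 and differed by 1.55 ± 0.26 (SE). Il13, which encodes the Th2 cytokine interleukin 13, had the largest difference of the list, but it was called P on no array and no value is given. Nfil3 had no probe set with a single identifier.

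Of the 9 represented Th17 genes, 4 had all GFP-RFP+ arrays above and none below, with a median of 0.63. Il21, the gene of a cytokine that c-Maf transactivates, was called P on 5 arrays and gave 17.3 to 58.8 against 1.08 to 5.36. The GFP+RFP+ signals lay below the median of every array and the calls were not assigned to groups, so no log2 difference is given. Irf4, a factor of effector T cells and effector regulatory T cells, gave 400.9 to 594.8 against 134.7 to 265.1 and differed by 1.35 ± 0.16 (SE).

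Of the 11 represented follicular helper genes, 4 had all GFP-RFP+ arrays above and 1 below, with a median of 0.32. The 4 above were Icos (1.29 ± 0.13, SE), Tox (0.37 ± 0.11, SE), Pou2af1 and the BCL6 opponent Prdm1. Cxcr5, Pdcd1, Cd200 and Btla, each called P on all 8 arrays, overlapped between the populations. They differed by 0.32 ± 0.13, 0.11 ± 0.21, 0.05 ± 0.14 and 0.04 ± 0.12 (log2 difference, SE). These genes, Icos and Tox included, were named after their values were seen. Pou2af1, a transcriptional coactivator, gave 116.2 to 204.1 against 25.1 to 102.5 and differed by 1.72 ± 0.32 (SE). Pou2af1 is also active in B cells, and the summed signal of the B cell markers was 281.2 to 323.0 in GFP-RFP+ and 313.1 to 320.2 in GFP+RFP+ lymph node arrays, and 670.4 to 909.2 and 528.5 to 733.6 in the spleen arrays. Prdm1 encodes BLIMP1, which opposes BCL6 in follicular helper cells, and gave 238.5 to 250.9 against 78.4 to 98.7, a log2 difference of 1.40 ± 0.12 (SE). Prdm1 and Bcl6 thus both had higher signals in GFP-RFP+ cells. The 1 gene below was Id3, an inhibitor of E proteins, at -0.78 ± 0.11 (SE), named after its value was seen.

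Of the 8 AHR targets and partners, 2 had all GFP-RFP+ arrays above and none below, with a median of 0.19. Tiparp, a target gene of AHR, gave 831.3 to 1056 against 213.1 to 220.9 and differed by 2.13 ± 0.13 (SE). Arnt2, a relative of the AHR partner ARNT, gave 120.6 to 140.9 against 36.6 to 41.0 and differed by 1.75 ± 0.11 (SE). The other classical targets were dim, with Cyp1a1 called P on 3 arrays, Ahrr on 1 and Cyp1b1 on none.

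Among the 15 family relatives of the factors, 4 had all GFP-RFP+ arrays above and 2 below, with a median of 0.15. Maff, which encodes a small Maf protein, was called P on 5 arrays and gave 282.2 to 446.3 against 6.02 to 14.3. Its GFP+RFP+ signals, too, lay below the median of every array, so no log2 difference is given. Mafg, the gene of another small Maf protein, gave 269.7 to 306.6 against 84.7 to 105.7 and differed by 1.61 ± 0.12 (SE). Gata1, the erythroid relative of Gata3, went the other way at -1.55 ± 0.11 (SE), with 48.4 to 59.0 in GFP-RFP+ arrays and 142.8 to 173.8 in GFP+RFP+ arrays. In the lymph node arrays the summed erythroid marker signal was 97.2 to 107.3 in GFP-RFP+ and 87.3 to 101.7 in GFP+RFP+ cells, and in the spleen arrays 485.7 to 556.7 and 251.9 to 382.1. Gata1 and Gata3 thus differed in opposite directions, as did Eomes and Tbx21. Gata1 was named after its value was seen, and Zbtb7b, the gene of the CD4 lineage factor ThPOK, was the other relative below, at -0.48 ± 0.14 (SE).

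**Figure D4:**
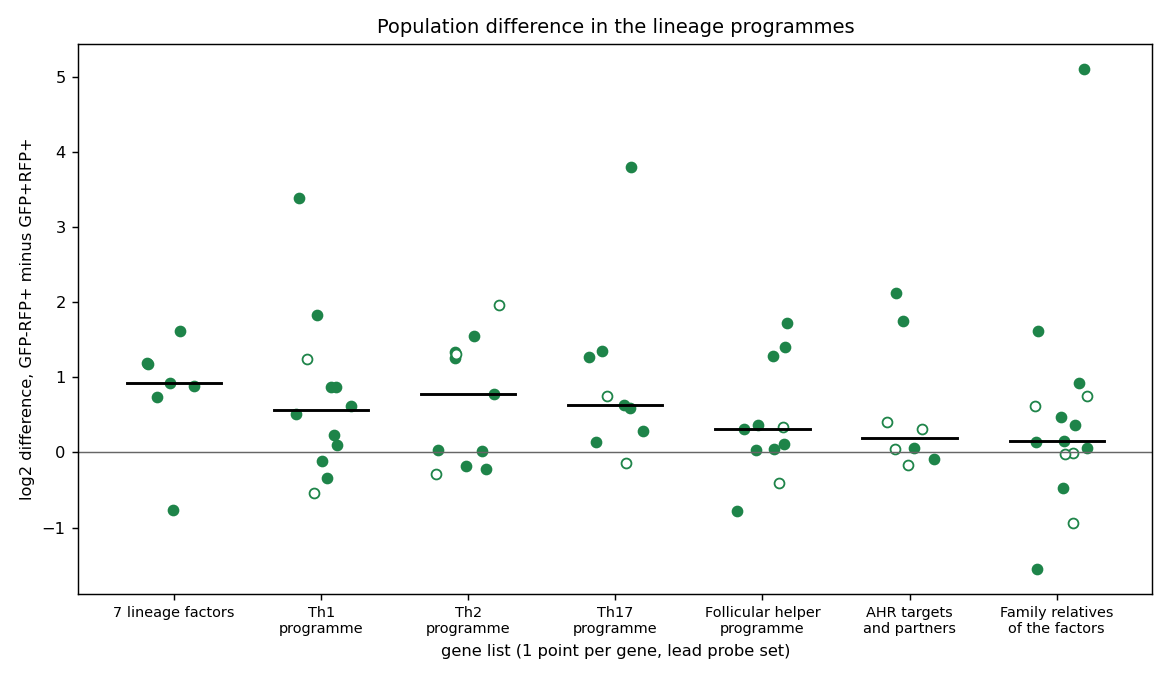
Log2 difference between the populations (vertical axis) for the 7 factors and the 6 gene lists (horizontal axis), with 1 point per gene and a bar at the median of each list. Open points were called P on under 4 arrays. The medians run from 0.15 for the family relatives to 0.92 for the factors.

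None of the 12 marker genes of regulatory and CD4 T cells passed the limma fit over all probe sets. The log2 difference, GFP-RFP+ minus GFP+RFP+, was -0.57 ± 0.12 (SE, limma adjusted p = 0.285) for Foxp3 and -0.86 ± 0.23 (SE, limma adjusted p = 0.305) for Il2ra, the gene of CD25. For Ctla4, which encodes an inhibitory receptor, it was 1.45 ± 0.11 (SE, limma adjusted p = 0.282). Of the 12 markers, 6 had all GFP-RFP+ arrays above and 3 below, against 11.7% and 8.82% of all genes. Over all probe sets called P on at least 4 arrays the shares were 19.9% and 11.4%. The 3 below were Foxp3, Il2ra and Ikzf4. The summed signal of the 12 was 27826 to 28898 in GFP-RFP+ and 22736 to 23944 in GFP+RFP+ arrays. Bright genes weigh most in this sum, and Ctla4 alone gave 5243 to 5506 against 1843 to 2181. The part of these markers in the differences of the lineage factors was not tested.

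For each factor, the 3 genes closest to its lead probe set were taken from 8751 genes called P on all arrays, by the root mean square (RMS) difference of centred log2 signals over the 4 group means. With only 4 means, close patterns are easily met, and the lists are a description. Bcl6 was closest to Eea1, an endosomal tethering protein gene, at an RMS of 0.0051, followed by Il18rap at 0.02 and Plscr1 at 0.03. Maf was closest to Mafk, the gene of a small Maf protein, at 0.02, then Fbxo33 at 0.03 and Sertad1 at 0.04. Ahr was closest to Ccr7, the receptor that guides T cells into lymph nodes, at 0.04, then Tspoap1 at 0.07 and Icos at 0.08. Rora was closest to Zfand2a at 0.04, Ubald2 at 0.05 and Ets2 at 0.06. Tbx21 was closest to Ell2 and Sdr39u1 at 0.06 and Gch1 at 0.07. Gata3 was closest to Gtf2b, Cep57 and Npff at 0.03. Eomes was closest to Golph3l and Mrm2 at 0.02 and Zfp809 at 0.03.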

How the data were processed

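The deposited signal intensity values came from dChip, per the file headers, by its model-based expression on Mouse430_2 arrays with an outlier check, 1 baseline array and no log transform. RMA is the tool named in the submitters' processing notes. The deposited table of values per sample was identical, over all 45101 probe sets, to the dChip table, each of whose 8 signal columns equalled exactly 1 sample's column. Groups were taken from the sample names of the former. The 16 signal and call columns of the dChip table carry no sample name; they, and the other deposited values in them, were used only for that check and as unlabelled arrays for detection calls. The genome build is not given in the sources used here.

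Signals were taken to log2, the 2 technical arrays of each RNA were averaged, and limma 3.58.1 (R 4.3.3) was fitted to the 4 RNAs with population and organ as terms, with eBayes and Benjamini-Hochberg adjustment over 45037 probe sets. The fit has 1 residual degree of freedom per probe set, and the number of arrays limits the precision. Technical arrays were not paired by replicate number: deviations of same-numbered arrays correlated between -0.04 and 0.02 across groups. Current gene symbols came from RefSeq. Ahsp was not matched. Some genes of the lists are counted but not reported by name here.

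Every member probe set was reported. Of each list, any gene called in the fit was to be named, and otherwise the 2 with the largest absolute population difference. The neighbours of a factor were the 3 closest genes, for factors whose group means span at least 0.5 log2 units. The members, lists and tests were chosen with earlier results of these data known. The alternatives were quantile normalization, filters on dim or undetected probe sets, an offset of 16, a trended prior, fits on 8 arrays and leaving out each array.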

Additional observations from a re-analysis of the deposited data

How the results depend on the processing

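The population difference of each of the 7 lead probe sets kept its sign under all 15 alternatives, but only quantile normalization could have changed it. The filters, the trended prior and the fits on 8 arrays leave the difference itself unchanged. An offset or a left-out array cannot reverse populations whose arrays do not overlap. No lead probe set passed an adjusted p of 0.05 in the limma fit over all probe sets, under quantile normalization, among probe sets called P on at least 2 arrays, or with any 1 array left out, and all 7 passed under the other 5 alternatives. Over the alternatives the limma adjusted p of Rora ran from 3.24e-08 to 0.362 and that of Eomes from 0.00425 to 0.373. The count of probe sets called higher in GFP-RFP+ cells, 0 in the reported fit, was 3079 among the brighter probe sets, 2690 with an offset of 16, 4376 with a trended prior, 3279 in the 8-array fit and 2600 in the 8-array fit with the replicate block. Called lower were 1399, 1010, 2262, 1413 and 991 under the same settings. The organ counts, also 0, were 139, 258, 547, 273 and 175 higher in spleen and 12, 21, 184, 51 and 10 lower. The replicate block rests on technical numbers that did not pair the arrays, and fits on 8 arrays measure array error only, not the spread between mice or sorts. With a trended prior, the organ differences of Tbx21, Bcl6 and Ahr also passed (limma adjusted p of 0.0481, 0.0173 and 0.0183, against up to 0.73, 0.745 and 0.821 under other settings).

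The organ difference of Eomes was 0.03 and changed sign to -0.00202 under quantile normalization, and with 1 array left out it ran from -0.11 to 0.18. That of Rora ran from -0.0107 to 0.38 with 1 array left out, the lowest value without replicate 2 of GFP-RFP+ spleen. The cause of these shifts was not tested. The count of member probe sets without overlap, an alternative chosen after seeing the data, was 14 higher and 2 lower under quantile normalization. With 1 array left out it was 14 to 15 higher and 2 lower. Such a count cannot fall when an array is removed, so leaving out arrays does not check it. The data are limited in that each group is 1 pooled RNA, and that dim probe sets, such as those of Eomes, sit near background.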
